A study of Mus musculus with 6 samples.

Results

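The 10 genes described here encode parts and regulators of the motile cilia of ependymal cells: Foxj1, Rsph1, Spag6, Dnah5, Dnah9, Dnah11, Dynlrb2, Tmem212, Ccdc153 and Pifo. They were chosen by name, by a rule that uses no measured value, from the 38087 genes of the deposited table. RNA was sequenced from the cerebrum of mice aged 24 months, all of the C57BL6 strain, 3 of them WT and 3 haploinsufficient for Shugoshin1 (Sgo1-/+), with 1 library per mouse. The mice had no treatment, the Sgo1-/+ mice lacked 1 of the copies of Sgo1 in every cell, and the dissected tissue held cortex and hippocampus and was, by the study's methods, to exclude olfactory bulb, medulla and cerebellum. Males gave WT replicate 1 and Sgo1-/+ replicate 2, and females gave the remaining libraries. All WT RNA went into run 258 and all Sgo1-/+ RNA into run 259, which means that genotype and run cannot be told apart in any comparison below.

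Ependymal cells form the lining of the brain ventricles, and each carries a tuft of motile cilia whose beat moves cerebrospinal fluid along the wall. The forkhead transcription factor Foxj1 switches on the genes of the motile cilium, together with RFX factors, which bind a DNA element called the X-box. Inside the cilium, outer and inner dynein arms slide the microtubule doublets of the axoneme, while radial spokes and the central pair set the pattern of the beat.

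The estimated counts of a library summed to between 11123917 and 12505561. Sgo1, the gene targeted in this model, was too low to check the genotype: it had estimated counts of 0, 7 and 0 in WT and of 4, 2 and 0 in Sgo1-/+, in the order of the replicates. WT replicate 1 stood apart in its regional make-up. Its cerebellum markers summed to 53867 normalized counts against 13281 to 16409 in the other 5 libraries, its brain stem markers to 3259 against 23.1 to 60.5, and its markers of cortex and hippocampus to 5319 against 17499 to 19923. Markers of the olfactory bulb, a region the dissection was meant to leave out, were present and uneven. All 10 were tested and 0 were at 0 in any library. Their sums were 2422, 3952 and 3687 normalized counts in WT and 2653, 1918 and 1246 in Sgo1-/+, with a median log2 fold change of -1.60. Reln, named after its values were seen, gave the most counts of the 10 in every library (1879, 1284 and 1495 in WT, 1288, 1484 and 854 in Sgo1-/+). The sums therefore weigh Reln most, and Reln was highest in WT replicate 1. Cdhr1, one of these markers, had 891, 768 and 432 normalized counts in WT replicates 2 and 3 and Sgo1-/+ replicate 1, against 29.7 to 121 in the other 3 libraries. The part of olfactory bulb RNA in the values below was not tested. Cortical markers such as Slc17a7, the vesicular glutamate transporter of cortical neurons, were detected in every library (2218 to 11303 normalized counts).

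All 10 genes were detected in all 6 libraries, with estimated counts from 2.0 to 229, and all 10 passed the filter on low counts. The symbols used here were carried by 6 rows, and Pifo, Dnah5, Dnah9 and Dnah11 stood under older symbols and were found by gene ID. The row named Spag6 was the gene on mouse chromosome 16 (ENSMUSG00000022783), which GENCODE M21 calls Spag6l, and the gene on chromosome 2 that GENCODE M21 calls Spag6 was listed as BC061194 (ENSMUSG00000037708). The row named Spag6 was used as the member and BC061194 is given beside it, since reads of such near copies can be split between them. Because whole cerebrum was sequenced, fewer ependymal cells and less RNA per cell cannot be told apart.

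The promoters of the set are shown first, because Foxj1 and the RFX factors act through them. RefSeq promoter windows, from 250 bases before to 50 bases after a start site on GRCm38.p6, were matched for 8 of the 10 genes and held 9 start sites, with a pair for Pifo. Foxj1 and Rsph1 had no window. Both strands were searched for 3 patterns. The RFX core was written as GTTGCC, which the opposite strand shows as GGCAAC. A paired X-box was written as GTNNCC followed after 0 to 3 bases by its second arm, which reads GGNAAC, in either orientation, and the RFX core can overlap it. The FOXJ1 core was written as TGTTTAC, which the opposite strand shows as GTAAACA. The 250 bases before the start are printed 5′ to 3′ for Pifo, Dynlrb2 and Ccdc153, which held a match there (capitals). They are also printed for Dnah11, which held none and was picked for its counts, given below. The windows of Tmem212, Dnah5 and Dnah9 and the other window of Pifo held none either, so the lack of a match was not particular to Dnah11.
Pifo (internal start, chr3:106001498-106001747, minus strand): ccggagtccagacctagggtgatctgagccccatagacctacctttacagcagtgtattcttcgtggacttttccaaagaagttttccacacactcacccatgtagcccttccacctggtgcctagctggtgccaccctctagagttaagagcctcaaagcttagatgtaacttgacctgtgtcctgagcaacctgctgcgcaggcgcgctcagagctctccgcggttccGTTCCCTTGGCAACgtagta
Dynlrb2 (chr8:116504765-116505014, plus strand): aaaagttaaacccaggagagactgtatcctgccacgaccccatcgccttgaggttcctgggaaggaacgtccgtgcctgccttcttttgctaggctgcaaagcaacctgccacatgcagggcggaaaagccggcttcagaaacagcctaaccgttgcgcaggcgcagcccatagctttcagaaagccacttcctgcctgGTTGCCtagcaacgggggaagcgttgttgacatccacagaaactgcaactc
Ccdc153 (chr9:44240427-44240676, plus strand): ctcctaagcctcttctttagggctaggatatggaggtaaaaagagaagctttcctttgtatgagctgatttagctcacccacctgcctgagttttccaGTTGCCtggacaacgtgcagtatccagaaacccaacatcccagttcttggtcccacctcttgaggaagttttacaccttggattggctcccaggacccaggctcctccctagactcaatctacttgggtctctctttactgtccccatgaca
Dnah11 (chr12:118199044-118199293, minus strand): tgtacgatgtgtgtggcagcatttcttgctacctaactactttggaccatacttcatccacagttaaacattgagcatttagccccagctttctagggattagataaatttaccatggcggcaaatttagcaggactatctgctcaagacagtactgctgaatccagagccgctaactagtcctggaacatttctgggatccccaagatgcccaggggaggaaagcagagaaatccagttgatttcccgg

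The capitals in the Pifo promoter are a paired X-box, GTTCCCTTGGCAAC, that begins at position -20 relative to the start site and contains the RFX core. In Dynlrb2 the core begins at position -51 and in Ccdc153 at position -152. The window of Spag6 held a match after its start site, at position 34. The RFX core was thus in 4 of the 9 windows (44.4%), against 4111 of all 32851 RefSeq windows of the same length (12.5%), and a paired X-box was in 2 of 9 against 2.34% of all windows. Among 88 windows of other motile cilium genes the RFX core was in 39 (44.3%), and among 26 windows of genes for intraflagellar transport and the BBSome it was in 12 (46.2%). The FOXJ1 core was in 0 of the 9 windows, beside 3.65% of all windows and 7.95% of the windows of other motile cilium genes. These matches describe letters in a window and were not tested for binding or for effect on the counts.

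Counts were compared between genes only per length of exon. On that scale (counts per kilobase of exon, scaled to the same total in every library, as in TPM) Foxj1 had the highest level of the set, with a mean of 15.3 over the 6 libraries and a range from 7.57 to 26.9. Rsph1 followed at 9.35, then Tmem212 at 6.16, Dynlrb2 at 5.59, Spag6 at 5.01, Ccdc153 at 3.36 and Pifo at 2.71. The outer arm heavy chains were lowest, with Dnah9 at 1.35, Dnah11 at 1.32 and Dnah5 at 1.27. Each gene in this order overlapped its neighbour in range over the 6 libraries. Compared within each library, Foxj1 was the highest of the set in all 6. Every other neighbouring pair changed its order between libraries.

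**Figure D1:**
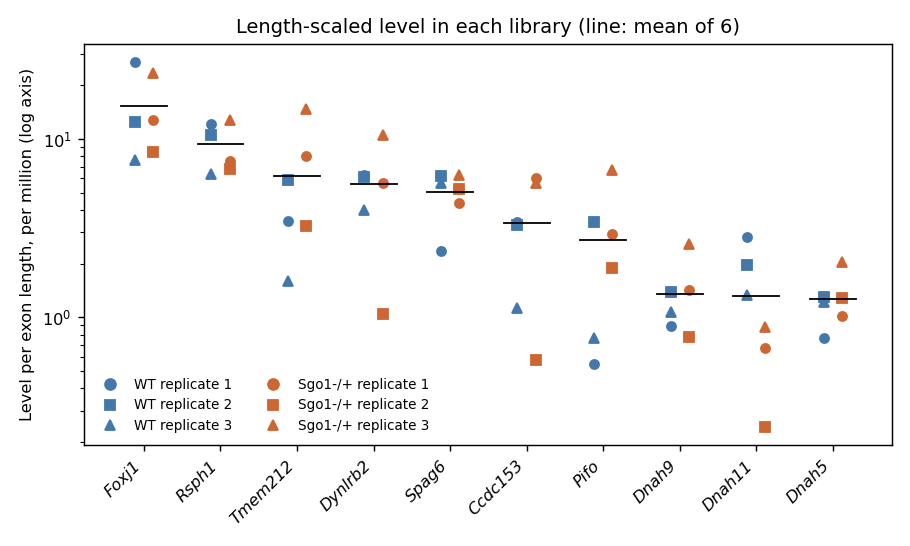
Length-scaled level of each of the 10 genes (y axis, TPM-like units, log scale) in the 3 WT and 3 Sgo1-/+ libraries, with a line at the mean of the 6. Foxj1 lies highest with a mean of 15.3, the dynein heavy chains lie near 1.3, and neighbouring genes overlap in range.

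Levels per length of related genes are given for scale. Dynlrb1, the roadblock light chain of cytoplasmic dynein in most cells, had a mean level of 337.7, against 5.59 for its ciliary relative Dynlrb2, and the ranges were far apart. Foxj2 and Foxj3, forkhead factors expressed outside multiciliated cells, had mean levels of 24.9 and 26.6, beside 15.3 for Foxj1, whose range of 7.57 to 26.9 overlapped both. Compared within each library, Foxj2 exceeded Foxj1 in every library, and Foxj3 did so in all but WT replicate 1. The heavy chains Dnah17 and Dnah8, known from sperm, had mean levels of 0.484 and 0.0665. For both, every library lay below the lowest level of Dnah5 (0.770) and of Dnah9 (0.777). Dnah8 (at most 0.193) also lay below the lowest level of Dnah11 (0.242), but Dnah17 (0.352 to 0.575) did not. BC061194 had a level of 6.10, and its range overlapped that of Spag6.

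The comparison of the genotypes asked whether the loss of 1 Sgo1 copy goes with a change in these genes at 24 months. Of the 10 genes, 0 passed an adjusted p of 0.05 in edgeR's quasi-likelihood test, where the background over 16337 genes tested was also 0 (percent called 0). At an unadjusted p under 0.05, 1 of 10 passed (Dnah11), beside a background of 2.04% of all genes tested. DESeq2 also put 1 of 10 under the unadjusted threshold (background 2.25%) and 0 past the adjusted threshold (background 0.0184%), and limma gave 1 of 10 (background 2.58%) and 0 of 10 (background 0). The edgeR adjusted p was 0.9999 for each of the 10. The same gene was the only one of the 10 whose groups did not overlap, beside 6.85% of all genes tested. The fitted log2 fold change was above 0 in 8 of 10 genes, beside 49.8% of all genes, and its median over the 10 was 0.32, beside -0.0007 over all genes. The 10 genes share their libraries, so their number is not a number of replicates.

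**Figure D2:**
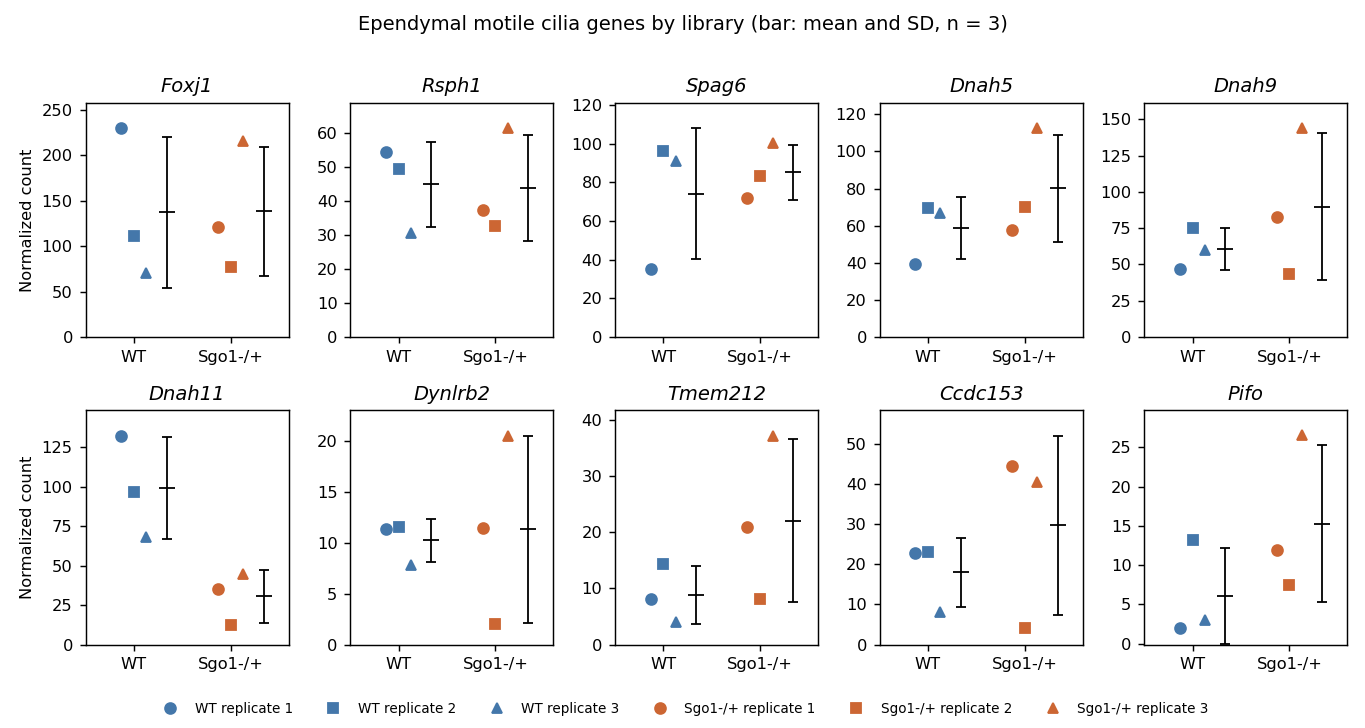
Normalized count of each gene (y axis) in each library, WT in blue and Sgo1-/+ in orange, with the mean and SD of the 3 libraries of a group as a black bar. Dnah11 alone has groups that do not overlap, and Sgo1-/+ replicate 3 (orange triangle) is highest in 7 of the 10 panels.

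Foxj1 is the regulator of the set. Normalized counts, here and below in the order of the replicates, came to 230.2, 111 and 70.2 in WT and to 122, 77.5 and 216 in Sgo1-/+. WT replicate 1 and Sgo1-/+ replicate 3 were the high libraries of their groups, and the groups overlapped throughout. WT averaged 137 ± 83.1 (SD, n = 3) and Sgo1-/+ 138 ± 70.8 (SD, n = 3). These gave a log2 fold change of 0.01 (SE 0.520) and an exact permutation p of 1 (two-sided, as for each exact p below). Its highest library exceeded its lowest 3.28-fold, both of them WT, so the spread within WT was far larger than the difference between genotypes.

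Rsph1 encodes a protein of the radial spoke head. Its normalized counts were 54.4, 49.3 and 30.7 in WT and 37.4, 32.5 and 61.4 in Sgo1-/+. As for Foxj1, WT replicate 1 and Sgo1-/+ replicate 3 were the high libraries of their groups and WT replicate 3 the lowest of all. Its fitted log2 fold change was -0.03 (SE 0.355, exact permutation p = 1). Its direction turned when any of 4 libraries was left out (-0.35 to 0.14 over the 6 fits).

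Spag6 encodes a protein of the central apparatus. Its normalized counts were 35.1, 96.3 and 91.1 in WT and 72.0, 83.1 and 100.3 in Sgo1-/+. WT replicate 1 was far below the other 5 libraries, which lay close together. The difference on the log2 scale was 0.19 (SE 0.386, exact permutation p = 0.8), and without WT replicate 1 it was -0.14. Its near copy BC061194 had 40.5, 93.0 and 111 in WT and 69.5, 56.3 and 62.6 in Sgo1-/+, again with WT replicate 1 lowest. BC061194 gave a log2 fold change of -0.37 (SE 0.373, exact permutation p = 0.4), which became -0.69 (unadjusted p = 0.0161, edgeR adjusted p = 0.9995) without WT replicate 1.

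Dnah5, Dnah9 and Dnah11 are heavy chains of the outer dynein arm, the main motor of the beat. Dnah5 gave normalized counts of 39.3, 69.3 and 67.0 in WT and 57.6, 69.9 and 113 in Sgo1-/+. Dnah9 gave 46.5, 75.1 and 60.0 in WT and 82.4, 43.1 and 144 in Sgo1-/+. In both genes Sgo1-/+ replicate 3 was the highest library and the remaining Sgo1-/+ libraries lay within or near the WT range. The log2 fold changes were 0.45 for Dnah5 (SE 0.346, exact permutation p = 0.4) and 0.57 for Dnah9 (SE 0.440, exact permutation p = 0.5). They came to 0.12 and 0.06 without Sgo1-/+ replicate 3.

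Dnah11, the heavy chain of the outer arms in the proximal part of the cilium, had 133, 96.4 and 68.2 normalized counts in WT and 35.0, 12.2 and 44.9 in Sgo1-/+. Every Sgo1-/+ library was below every WT library. WT averaged 99.0 ± 32.2 (SD, n = 3) and Sgo1-/+ 30.7 ± 16.8 (SD, n = 3). Dnah11 was thus lower in Sgo1-/+ by a log2 fold change of -1.69 (SE 0.483, edgeR unadjusted p = 0.0104). It did not pass adjustment over all genes (edgeR adjusted p = 0.9999, and 0.764 to 0.9999 over all fits), and the exact permutation p was 0.1, the smallest that 3 against 3 allows. The value held between -2.07 and -1.32 with any library left out, and the unadjusted p was under 0.05 in each of 14 alternative fits.

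Dnah11 lies at chr12:117877982-118199043 on the minus strand and shares 642 bases of exon, 4.44% of its exon length, with Cdca7l on the opposite strand. The library kit does not mark strand and the use of strand in counting is not given in the sources used here, so reads of the shared stretch cannot be assigned to either gene. Cdca7l, which encodes a nuclear protein related to a Myc target, had 20.6, 28.1 and 30.1 normalized counts in WT and 16.0, 13.5 and 14.9 in Sgo1-/+. Its groups did not overlap either, with a log2 fold change of -0.83 (SE 0.307, edgeR unadjusted p = 0.0312, adjusted p = 0.9999). The difference between group means was -68.4 normalized counts in Dnah11 and -11.5 in Cdca7l. The part of the shared stretch in the Dnah11 difference was not tested.

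**Figure D3:**
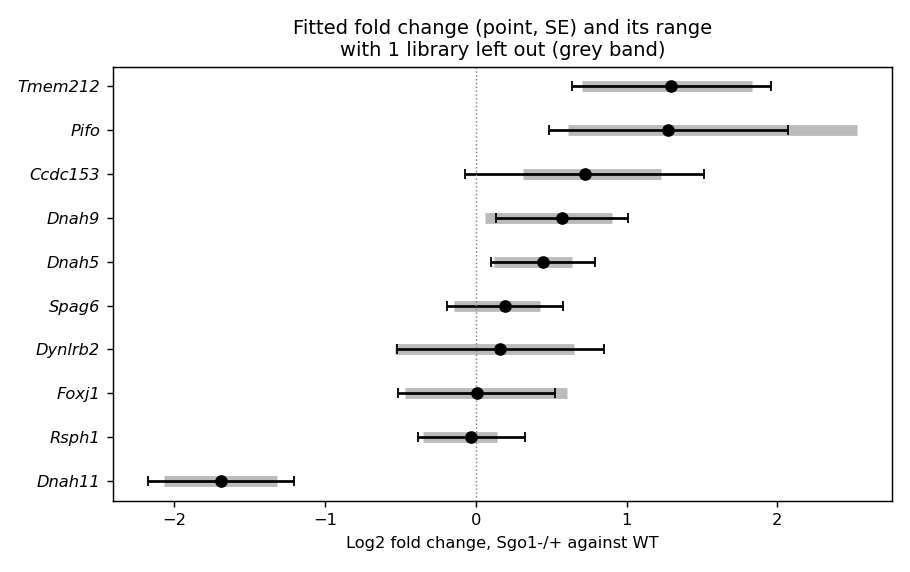
Fitted log2 fold change of Sgo1-/+ against WT for each gene (x axis), with its SE as a line and the range over fits with 1 library left out as a grey band. Dnah11 lies at -1.69 with its band below 0, Tmem212 and Pifo lie highest at 1.30 and 1.28, and the bands of Foxj1, Rsph1, Spag6 and Dynlrb2 cross 0.

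Dynlrb2 is a light chain of the roadblock type that serves dynein in cilia. Its normalized counts were 11.4, 11.5 and 7.81 in WT and 11.4, 2.03 and 20.5 in Sgo1-/+. The Sgo1-/+ libraries lay on both sides of WT, and the value in Sgo1-/+ replicate 2 rested on 2.0 estimated counts. On the log2 scale the difference was 0.16 (SE 0.688, exact permutation p = 0.9), and it was -0.54 without Sgo1-/+ replicate 3. Dynlrb1 had between 1010.2 and 1336 normalized counts and a log2 fold change of 0.03 (SE 0.140).

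Tmem212, Ccdc153 and Pifo are used as markers of ependymal and other multiciliated cells, and Pifo acts at the base of cilia. Tmem212, a transmembrane protein, had 8.06, 14.3 and 4.06 normalized counts in WT and 20.9, 8.11 and 37.2 in Sgo1-/+. Sgo1-/+ replicates 1 and 3 exceeded all WT libraries, but Sgo1-/+ replicate 2 lay within the WT range. The log2 fold change of 1.30 (SE 0.662) had an unadjusted edgeR p of 0.0914 and an exact permutation p of 0.2. Without Sgo1-/+ replicate 3 it was 0.71, and without WT replicate 2 it was 1.83.

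Pifo had 2.01, 13.1 and 3.04 normalized counts in WT and 11.9, 7.43 and 26.5 in Sgo1-/+. WT replicate 2 overlapped the Sgo1-/+ libraries, and WT replicates 1 and 3 rested on 2.0 and 3.0 estimated counts. Pifo gave a log2 fold change of 1.28 (SE 0.793, exact permutation p = 0.3). It ranged from 0.61 without Sgo1-/+ replicate 3 to 2.53 without WT replicate 2. Ccdc153, a coiled-coil protein, had 22.8, 22.9 and 8.12 in WT and 44.5, 4.05 and 40.5 in Sgo1-/+, so the lowest and the highest libraries were both Sgo1-/+. This gave a log2 fold change of 0.72 (SE 0.793, exact permutation p = 0.5).

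Single libraries stood out across the set. Sgo1-/+ replicate 3 was the highest library for 7 of the 10 genes (Rsph1, Tmem212, Dynlrb2, Pifo, Dnah5, Dnah9 and Spag6), beside 12.8% of all genes tested. WT replicate 1 was highest for Foxj1 and Dnah11, and Sgo1-/+ replicate 1 for Ccdc153, beside 28.1% and 12.3% of all genes. No gene of the set was highest in WT replicate 2, WT replicate 3 or Sgo1-/+ replicate 2, which were highest for 18.3%, 15.1% and 13.6% of all genes. Summed over the 10 genes, the normalized counts were 582, 560 and 410 in WT and 494, 339.8 and 804 in Sgo1-/+, so that the lowest and the highest sums were both from Sgo1-/+ mice.

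Markers of the choroid plexus, the ventricular tissue that secretes cerebrospinal fluid and whose epithelium also carries cilia, varied between libraries as well. All 15 of its markers were tested, and their summed normalized counts were 22053, 7977 and 697 in WT and 1354, 426 and 25257 in Sgo1-/+. Ttr, the transthyretin gene and its most abundant marker, ran from 113 in Sgo1-/+ replicate 2 to 21819.6 in Sgo1-/+ replicate 3, and Clic6, a chloride channel gene, from 128 to 475. Of the 15, 2 (Folr1 and Slc4a5) were at 0 in Sgo1-/+ replicate 2 and 0 were at 0 in any other library. The libraries with the most choroid plexus RNA, WT replicate 1 and Sgo1-/+ replicate 3, were also the libraries with the most Foxj1 and Rsph1. Other genes of the set differed: WT replicate 1 was the lowest library for Pifo (2.01), Dnah5 (39.3) and Spag6 (35.1). The part of choroid plexus RNA in the values of the set was not tested.

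With those 2 libraries left out, a fit chosen after the data were seen, 0 of the 10 genes passed the adjusted threshold and the median log2 fold change over the set was -0.10 in place of 0.32. The libraries kept were still uneven in choroid plexus markers, with sums of 7977 and 697 in WT and 1354 and 426 in Sgo1-/+. Dnah5, Dnah9, Spag6 and Dynlrb2 turned to -0.10, -0.10, -0.28 and -0.48, and Tmem212 and Pifo came to 0.64 and 0.20. Dnah11 stood at -1.80 (edgeR unadjusted p = 0.00864, adjusted p = 0.999). Left out alone, WT replicate 1 kept the median of the set at 0.32 and Sgo1-/+ replicate 3 took it to 0.06, within a range of 0.06 to 0.59 over the 6 fits with 1 library left out.

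**Figure D4:**
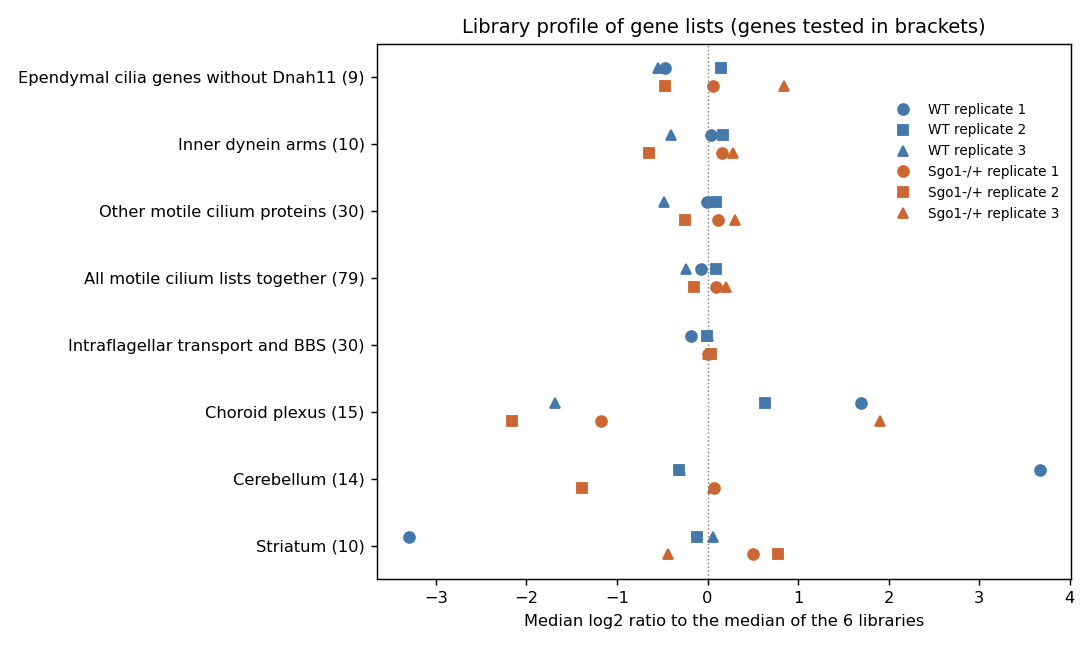
Median log2 ratio of each gene list to the median of the 6 libraries (x axis), by library, for 9 of the 10 genes (without Dnah11), other cilium lists, and choroid plexus, cerebellum and striatum markers. Sgo1-/+ replicate 3 is highest for the ependymal genes (0.84) and for the choroid plexus (1.91), and WT replicate 1 is far off in cerebellum (3.67) and striatum (-3.30). Intraflagellar transport genes lie close to 0 in all libraries but WT replicate 1 (-0.18).

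The other genes of the motile cilium were taken from 7 lists by part of the axoneme, and 79 of 96 passed the filter. Of these, 0 passed the adjusted threshold and 0 an unadjusted edgeR p of 0.05. The log2 fold change was above 0 in 55 and below 0 in 24, with a median of 0.18. This median was 0.05 without WT replicate 1, 0.07 without WT replicate 3, 0.40 without WT replicate 2 and -0.01 without both choroid-rich libraries. In 5 genes every Sgo1-/+ library exceeded every WT library, beside 3.28% of all genes: the docking protein Ccdc151, the outer arm intermediate chain Dnaic2, the kinesin Kif9, and Fam183b and Iqub. In 1 gene, the inner arm heavy chain Dnah7a, every Sgo1-/+ library was lower, beside 3.57% of all genes. Dnaic2, Kif9, Iqub and Dnah7a were named after their values were seen.

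By part, the median log2 fold changes were 0.13 over 7 genes of the outer arms and docking complex, -0.08 over 10 of the inner arms, 0.14 over 8 of arm assembly, 0.02 over 6 of the radial spokes, 0.18 over 9 of the central pair, 0.30 over 9 of the nexin links and 0.22 over 30 other motile cilium proteins. Ccdc151 had 22.2, 54.7 and 37.5 normalized counts in WT and 62.8, 64.0 and 64.6 in Sgo1-/+, with a log2 fold change of 0.74 (SE 0.339). Its Sgo1-/+ libraries were close together and its lowest library was WT replicate 1. Fam183b, a small protein of motile cilia, had 21.7, 13.3 and 2.86 in WT and 38.7, 23.6 and 27.6 in Sgo1-/+, with a log2 fold change of 1.21 (SE 0.603). Dnali1, an inner arm light intermediate chain, was highest in Sgo1-/+ replicate 3 (51.2, against 8.12 to 22.4 in the other 5 libraries), as was much of the ependymal set.

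For the remaining genes with the highest levels in their lists, the values of the groups overlapped. Dnal1, an outer arm light chain, had 771 normalized counts in WT replicate 1 and 1315 to 1727 in the other 5 libraries, with a log2 fold change of 0.09 (SE 0.297). Wdr78, an inner arm protein, gave 0.16 (SE 0.150) and Ccdc113, a coiled-coil protein of cilia, 0.32 (SE 0.377). Rsph9, a radial spoke head protein, gave a log2 fold change of 0.42 (SE 0.270), Nme5, a protein of the same spokes, 0.44 (SE 0.246). Drc1, a scaffold of the nexin link, gave 0.30 (SE 0.299) and Gas8, its partner, -0.10 (SE 0.170). Cfap69 of the central pair gave -0.16 (SE 0.167), and the arm assembly factors Dnaaf2 and Lrrc6 gave -0.13 (SE 0.217) and 0.48 (SE 0.465).

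Of 14 regulators of multiciliation other than Foxj1, 12 passed the filter and 0 passed the adjusted threshold. At an unadjusted p under 0.05, 0 were higher and 1 was lower, beside 0.808% and 1.23% of all genes. That gene was Stk36, the fused kinase required for the central pair, with 59.4, 55.3 and 64.2 normalized counts in WT and 44.3, 27.3 and 40.8 in Sgo1-/+. The fitted difference of Stk36 was -0.66 on the log2 scale (SE 0.262, edgeR unadjusted p = 0.0411, adjusted p = 0.9999). Of the 12, the groups did not overlap in 1 lower gene (Stk36, beside 3.57% of all genes) and in 1 higher gene, beside 3.28%. The higher gene, named after its values were seen, was Six3, a homeobox factor. It had 54.4, 197 and 173 normalized counts in WT and 239, 267 and 224 in Sgo1-/+, with a log2 fold change of 0.79 (SE 0.424). Its lowest library was WT replicate 1 and its highest Sgo1-/+ replicate 2, as for all 10 striatum markers (median log2 fold change 0.88). The part of striatal RNA in the Six3 values was not tested. E2f4 and E2f5, which drive centriole amplification in multiciliated cells, had log2 fold changes of 0.00 (SE 0.157) and 0.05 (SE 0.208). Rfx3, a partner of Foxj1 at the X-box, had 282 to 605 normalized counts in WT and 462 to 627 in Sgo1-/+.

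The genes of intraflagellar transport and the BBSome build primary as well as motile cilia. All 30 were tested, 0 passed either threshold, and the median log2 fold change was 0.08. Their highest sum of normalized counts (17780) was 1.23 times the lowest (14468), where the far less abundant ependymal set spanned 2.37-fold (339.8 to 804). Kif3a and Kifap3, subunits of the transport kinesin, had log2 fold changes of 0.12 (SE 0.126) and 0.08 (SE 0.137).

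The 10 genes whose profile over the 6 libraries was most like the mean profile of the set were sought among 16161 genes, as a description over 6 libraries that share depth and tissue make-up. They were Cuedc2 (Pearson r = 0.993), Tmem141, Spag16, Myo1f, Ppp2r3a, Myo7a, Taf3, C1qc, Endou and Cyba (r = 0.969). Spag16, a central pair protein, was the only gene of the motile cilium lists among them (r = 0.985), with 17.1, 20.9 and 8.66 normalized counts in WT and 19.8, 6.08 and 35.8 in Sgo1-/+. Cuedc2 moved in a narrow range (1263 to 1364), so likeness of profile did not mean likeness in size. The median r with the profile of the set was 0.41 for all motile cilium lists together. By part it was 0.07 for arm assembly, 0.26 for outer arms, 0.31 for radial spokes, 0.40 for nexin links, 0.47 for the central pair, 0.60 for other motile cilium proteins and 0.70 for inner arms. It was 0.18 for regulators of multiciliation, 0.74 for choroid plexus markers, -0.11 for intraflagellar transport genes and 0.01 for all genes searched.

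Values for markers of other cell types near the ventricle follow. Tanycyte markers had a median log2 fold change of 0.20 over 7 genes and a median r with the set of 0.14, astrocyte markers -0.18 over 12 genes and 0.11, and subventricular neuroblast markers -0.32 over 12 genes and -0.06. In each of these lists 0 genes passed either threshold.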

How the data were processed

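RNA of 6 mouse cerebra was sequenced with 1 library per mouse. In Strand NGS the authors mapped the paired reads to mm10, and they deposited estimated counts per Ensembl gene, which are not normalized and need not be whole (47.4% to 48.6% of the values of a library had a fractional part, with no tolerance and over all 38087 genes, those at 0 included). The columns carry brain numbers instead of sample titles and were matched to libraries by number (1 to 3 as WT, 4 to 6 as Sgo1-/+), which the column names do not spell out; Xist and Ddx3y matched the labelled sex in 6 of 6. BWA and edgeR are named in the submitters' processing notes, with no role. Normalized values deposited by the authors were not used. The estimated counts were rounded and fitted with edgeR 4.0.16 in R 4.3.3 (TMM, filterByExpr, quasi-likelihood test, Benjamini-Hochberg adjustment over 16337 genes). Normalized counts used TMM library sizes, and levels per length used merged exons of GENCODE M21 (GRCm38). Exact permutation tests used the 20 groupings of the libraries. Alternatives were DESeq2 1.42.0, limma 3.58.1 (log2 of normalized counts plus 1), other filters and scalings, sex, the replicate number and leaving out libraries. Scripts were tested on simulated data.

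Named genes were the 10 genes, Sgo1, paralogs and the 10 with the profile most like the set. From the motile cilium, multiciliation, intraflagellar transport and choroid plexus lists came the 2 genes highest per length and any with unadjusted p under 0.05. Of the lists of regions and other cell types, only some such genes are named. Others are marked as named after their values were seen, or stand beside a gene they overlap. In the regional lists, Shisa8 (olfactory bulb), Cbln1 (cerebellum), and Slc6a5 and Glra1 (brain stem) had an unadjusted edgeR p under 0.05. They were 1 of 10, 1 of 14 and 2 of 3 genes tested, all lower in Sgo1-/+, beside 1.23% of all genes. The genes and lists were chosen with earlier results of these data known. Estimated counts at or under 3 were taken as near the floor of detection. Promoters are from RefSeq (GRCm38.p6).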

Additional observations from a re-analysis of the deposited data

How the results depend on the processing

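The number of the 10 genes past the adjusted threshold was 0 in the fit reported and in all 14 alternatives, and the same held for the other motile cilium lists. At an unadjusted p under 0.05 the number of the 10 genes was 1 to 3 with 1 library left out, with Tmem212 and Dnah9 joining without Sgo1-/+ replicate 2 and Pifo without WT replicate 2, and 1 in the other alternatives. For the other motile cilium genes this number was 0 in the fit reported, 0 to 2 with 1 library left out, 2 without both libraries rich in choroid plexus RNA, 1 with limma and 2 with sex as a covariate. The median log2 fold change of the 10 genes was 0.06 without Sgo1-/+ replicate 3 and 0.59 without Sgo1-/+ replicate 2.

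Directions turned for 6 of the 10 genes. Foxj1 ran from -0.47 to 0.60 with 1 library left out, being -0.47 without Sgo1-/+ replicate 3, -0.31 without WT replicate 3 and -0.12 without WT replicate 2. Rsph1 ran from -0.35 to 0.14, being 0.07, 0.14, 0.13 and 0.05 without Sgo1-/+ replicates 1 and 2 and WT replicates 1 and 2. Dynlrb2 was -0.24 with limma, -0.022 with sex as a covariate, -0.54 to 0.65 with 1 library left out (below 0 without Sgo1-/+ replicate 3) and -0.48 without both choroid-rich libraries, where Dnah5 was -0.10, Dnah9 -0.10 and Spag6 -0.28. Spag6 ran from -0.14 without WT replicate 1 to 0.42 without WT replicate 2. The cause was not tested. Requiring 10 or more counts in each library removed Tmem212, Ccdc153, Dynlrb2 and Pifo, so it gave no value for them.

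With the replicate number as a block, 0 of the 10 genes were called, the median of the set was 0.37, Dnah11 was -1.78 and Dynlrb2 turned to -0.075. The deviations of libraries with the same number from their group means correlated at -0.15, 0.01 and -0.21 over genes, and 0 of 6 libraries correlated best with their own number, so the libraries share only a number, and the block changed no call. Depth limits Dynlrb2 and Pifo most, with 2.0 to 3.0 estimated counts in 3 values, and 3 mice a group and 1 run per genotype limit every comparison.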

Other observations

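Dnah11 was also compared with all other genes, a search added after its values were seen. Among 16170 genes, the 10 with the most similar profile over the 6 libraries were Slco1a4 (Pearson r = 0.995), Snx24, Thbs2, Rbpj, Gm12473, Dgkd, Pstpip2, Sec61g, Zfp606 and Col1a2 (r = 0.972), and 0 of them were in the cilium lists. Thbs2, a matricellular protein, had 229.7, 177 and 149 normalized counts in WT and 120.4, 58.8 and 129 in Sgo1-/+. Col1a2, a chain of type I collagen, had 357, 252 and 171 in WT and 155, 52.7 and 172 in Sgo1-/+. Slco1a4, a transporter of the blood-brain barrier endothelium, had 603, 583 and 550.2 in WT and 512, 468 and 527 in Sgo1-/+. Likeness to a gene whose groups are separate picks genes that differ in the same direction, so no test is given.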
